A study of Mus musculus with 13 samples.

Results

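The genes described here are 9 genes of antigen presentation by major histocompatibility complex (MHC) class II: H2-Aa, H2-Ab1, H2-Eb1, H2-DMa, H2-Oa, H2-Ob, Cd74, Ciita and Ctss. They were read in crypts of small intestine and in intestinal adenomas of mice, with Affymetrix microarrays (Mouse Gene 1.0 ST), each sample on an array of its own. A gene was read from probe sets that the platform annotation gives exactly 1 gene symbol. Each of the 9 genes had 1 such probe set and none shared with another symbol, so 9 of the 19938 genes readable in this way are covered. The rule that picks them uses gene names and no measured value.

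The 13 arrays form 3 groups, and all come from mice of 1 description, Apc mutant animals from a cross with mice transgenic for FPs. The labels do not spell out FP. The FP-high group (Intestine_FP_hi, 4 arrays) and the FP-low group (Intestine_FP_lo, 6 arrays) are normal epithelium lying next to adenomas, with high or low FP expression, and the adenoma group (Intestine_Adenoma) has 3 arrays. Neither the Apc allele, the promoter that drives FP, the age nor the sex of the animals is stated in the sources used here, and no wild-type group was analysed here. Levels are log2 values as deposited, so a difference of 1 is a 2-fold difference. Because crypts and adenomas are mixtures of cells, fewer cells of a type and less RNA per cell cannot be told apart. Which samples came from 1 animal is not given, so that a p-value here weighs a difference against the scatter of these samples, part of which may be technical.

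MHC class II molecules carry peptides from ingested or internalised proteins to the cell surface, where CD4+ T cells read them. H2-Aa with H2-Ab1 encode the alpha and beta chains of the I-A molecule, and H2-Eb1 encodes the beta chain of I-E. The new dimer is held by the invariant chain (Cd74), which cathepsin S (Ctss) trims in the endosome, and H2-DM then exchanges the remaining fragment for a peptide while H2-O restrains H2-DM. Ciita is the coactivator that turns class II genes on, constitutively in dendritic cells and B cells and after interferon gamma in many other cells. Enterocytes of the small intestine are a known epithelial site of MHC class II.

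Of the 9 genes, 6 lie together on chromosome 17, and 4 of the 5 among them whose promoter was searched held the sequence blocks that Ciita-bound factors read. In the order of RefSeq protein-coding genes, H2-Oa comes first, then Brd2, H2-DMa, H2-DMb2, H2-DMb1, Psmb9, Tap1, Psmb8, Tap2, H2-Ob, H2-Ab1, H2-Aa and H2-Eb1. The other 3, Cd74, Ciita and Ctss, lie on other chromosomes. RefSeq promoter windows, from 250 bases before to 50 bases after the gene start, were searched for 6 of the 9 genes, H2-DMa having 2 of the 7 windows. The promoters of H2-Ab1, Cd74 and Ciita were not analysed here. The windows were searched on both strands for an X box core (CNNGCAAC, bound by the RFX complex), a Y box (ATTGG, bound by NF-Y) and an interferon-stimulated response element (GAAA, any 2 bases, GAAA). An X box followed on the gene's strand by a Y box, with 10 to 40 bases between their starts, was present in H2-Aa, H2-Eb1, H2-Oa and H2-Ob. The same arrangement, counted on either strand, was found in 0.368% of all 32851 windows. The X box alone was in 11.2% of windows, the Y box alone in 37.4% and the interferon element in 3.44%.

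The motifs were chosen after the values or sequences had been seen. Their presence in these promoters, beside the shares over all windows, is thus a description and not a test. The 4 stretches are shown as they were found. Capitals mark the X box, on the left, and the Y box, on the right, in build GRCm38.p6, 5′ to 3′ on the gene's strand. H2-Aa is on the minus strand at chr17:34287861-34287913. The other 3 are on the plus strand, H2-Eb1 at chr17:34305767-34305818, H2-Oa at chr17:34092294-34092346 and H2-Ob at chr17:34238809-34238858.
H2-Aa: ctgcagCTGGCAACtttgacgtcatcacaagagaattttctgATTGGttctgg
H2-Eb1: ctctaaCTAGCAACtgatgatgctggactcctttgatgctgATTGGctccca
H2-Oa: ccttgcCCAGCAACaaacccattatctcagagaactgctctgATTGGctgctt
H2-Ob: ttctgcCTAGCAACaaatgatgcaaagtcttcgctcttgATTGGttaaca

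The X box began 84 bases before the gene start in H2-Aa, 94 in H2-Eb1, 79 in H2-Oa and 90 in H2-Ob, and the motif starts were 36, 35, 36 and 33 bases apart. Of the 2 windows of H2-DMa, the first held an X box only and the second a Y box only. The window of Ctss held neither box and was the only one of the 7 with the interferon element. It is printed below with that element in capitals, from the plus strand at chr3:95526759-95526780, beginning 21 bases before the gene start.
Ctss: ttaaatGAAACCGAAAtgaaag

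Some facts about the arrays bear on the values below. FP-high replicate 1 had a compressed range: its SD over all probe sets was 1.21, against 1.89 to 2.10 in the others, and its correlation with each other array had a median of 0.762, where the others had 0.943 to 0.968. Xist, the RNA that coats the inactive X chromosome of female cells, was at 8.64 to 9.71 in 5 arrays (all 3 adenomas, FP-high replicate 4 and FP-low replicate 6) and at 3.61 or lower in the other 8. Eif2s3y, a gene of the Y chromosome, was at 2.01 to 2.25 in those 5 arrays and at 4.43 to 6.87 in the other 8. The split thus reads as one of female against male tissue. The epithelial markers Epcam (7.58 to 9.58) and Krt8 (8.65 to 12.71) were read on every array, which does not tell adenoma from normal crypt. Both were lowest in FP-high replicate 1, where the mean of 11 epithelial markers stood at -1.91 relative to the FP-low mean, and E-cadherin (Cdh1) was at 5.15 against 8.53 to 9.497 on the other arrays.

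The 2 chains of the I-A molecule had lower levels in adenomas than in FP-low epithelium on every array, but neither difference passed the test. H2-Aa, the alpha chain, was at 5.96, 6.77 and 7.42 as the lowest, median and highest of the 6 FP-low arrays. Its FP-high levels were 5.45, 7.86, 8.37 and 4.68 in replicates 1 to 4, and its adenoma levels were 5.19, 5.72 and 4.65. The FP-high arrays thus fell on both sides of the whole FP-low range, replicates 2 and 3 above it and replicates 1 and 4 below it.

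H2-Ab1, the beta chain, had a wider span, again with FP-high replicates 2 and 3 above the FP-low range and replicate 1 below it, but with replicate 4 inside it. FP-low arrays ran from 6.73 over a median of 7.50 to 8.39, FP-high arrays stood at 4.66, 9.01, 9.55 and 6.81, and adenomas stood at 6.29, 6.54 and 5.89. The gap between FP-high replicates 1 and 3 was the full span of the gene over 13 arrays, 4.90. All 3 adenomas lay below all 6 FP-low arrays, and above FP-high replicate 1.

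H2-Eb1, the I-E beta chain, varied less and did not separate the groups. FP-low arrays had a low of 4.84, a median of 5.99 and a high of 6.60. FP-high levels were 4.57, 6.04, 6.44 and 4.93, again with replicates 2 and 3 high and replicates 1 and 4 low, and adenoma levels were 5.69, 5.34 and 4.996. The adenomas lay inside the range of both normal groups.

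The invariant chain gene Cd74 had lower and closely spaced levels in adenomas. Its FP-low levels had a low of 5.03, a median of 5.95 and a high of 6.68. Its FP-high levels were 4.65, 6.68, 7.47 and 4.53, and its adenoma levels were 4.63, 4.50 and 4.33. The adenoma levels were near or below the median level of those arrays (4.55 to 4.60), where there is less room to vary. All 3 adenomas were below every FP-low array, whereas FP-high replicate 4 lay between adenomas 1 and 2.

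H2-DMa, the alpha chain of the peptide exchanger, was the member with the smallest p in each comparison of adenomas with normal epithelium. FP-low arrays had a low of 4.13, a median of 4.997 and a high of 5.57, FP-high arrays were at 4.54, 4.92, 5.61 and 4.55, and adenomas were at 3.47, 3.73 and 4.16. The adenoma levels were all below the median level of those arrays (4.55 to 4.60), where there is less room to vary. Adenomas lay below all 4 FP-high arrays, and adenoma replicate 3 overlapped only with FP-low replicate 6.

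The chains of H2-O, which restrains H2-DM and is known chiefly from B cells, stayed in narrow ranges. Both were at low levels, where there is less room to vary. H2-Oa had an FP-low low, median and high of 3.23, 3.53 and 3.86, FP-high levels of 4.33, 3.34, 3.56 and 3.74, and adenoma levels of 3.31, 3.39 and 3.50. Its highest array was FP-high replicate 1, in which the I-A chains and Cd74 were low. H2-Ob had an FP-low low, median and high of 4.00, 4.12 and 4.94, FP-high levels of 4.22, 3.97, 3.98 and 4.11, and adenoma levels of 4.23, 4.21 and 4.05. Apart from FP-low replicate 3, the source of the 4.94, its 3 groups covered nearly the same levels.

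Ciita, the coactivator of MHC class II transcription, had the narrowest range of the 9 genes. The span over 13 arrays was 0.587, from 4.24 to 4.83. Its mean level, 4.45, was below the median level of every array (4.55 to 4.65), where there is less room to vary. FP-low arrays had a low of 4.37, a median of 4.42 and a high of 4.83, and the next FP-low level below that high was 4.43. FP-high levels were 4.46, 4.57, 4.53 and 4.43 and adenoma levels 4.43, 4.24 and 4.26, so that adenomas lay just below the FP-high arrays.

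Ctss, the protease that trims the invariant chain, did not follow the chains it serves. FP-low arrays had a low of 7.17, a median of 7.68 and a high of 8.48, and adenomas were at 7.14, 8.52 and 8.07. FP-high replicates 2, 3 and 4 were at 8.13, 8.83 and 8.37, and replicate 1 was apart at 5.15. FP-high replicate 4, low for H2-Aa and Cd74, was thus high for Ctss, and the adenomas spanned the FP-low range.

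**Figure D1:**
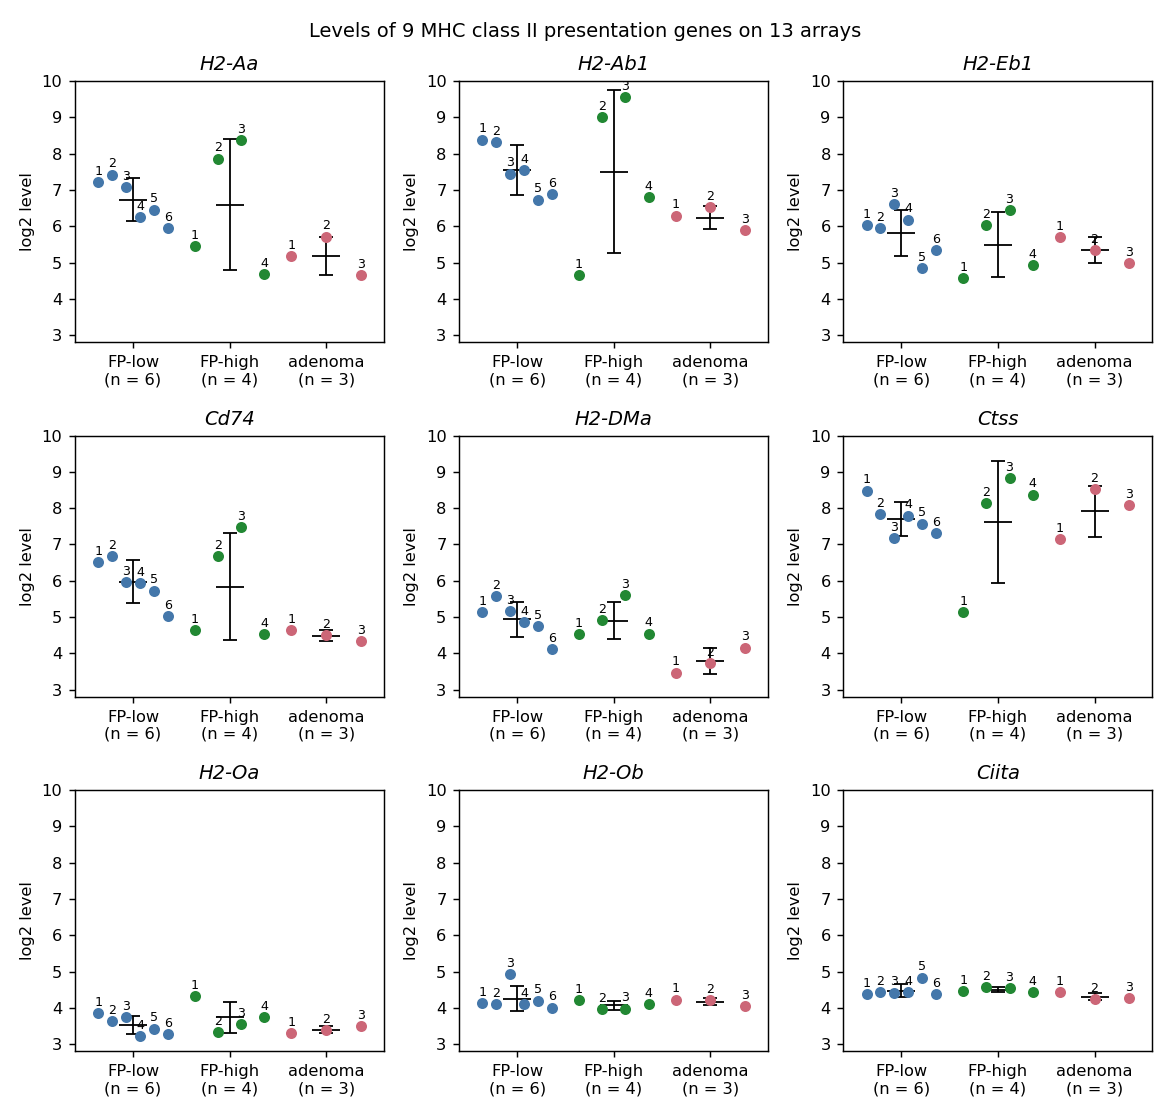
Log2 level (vertical axis) of the 9 genes on each array, by group (horizontal axis), with replicate numbers; the black line and bars are the group mean and SD. H2-Aa, H2-Ab1 and Cd74 in the 3 adenomas lie below all 6 FP-low arrays, and the 4 FP-high arrays split for these genes (H2-Aa 7.86 and 8.37 against 5.45 and 4.68). Ciita, at a low level with less room to vary, stays between 4.24 and 4.83.

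Between FP-high and FP-low epithelium, the comparison that asks what goes with FP expression in normal tissue, none of the 9 genes was called. The differences of the means (FP-high minus FP-low) were -0.14 ± 0.63 (SE) for H2-Aa, -0.05 ± 0.77 for H2-Ab1, -0.33 ± 0.40 for H2-Eb1 and -0.14 ± 0.53 for Cd74. The 95% interval of H2-Ab1 ran from -1.70 to 1.61 and that of H2-Aa from -1.52 to 1.23, so these arrays leave room for differences of either sign. H2-DMa was at -0.03 ± 0.28, Ctss at -0.07 ± 0.59, H2-Ob at -0.18 ± 0.17 and Ciita at 0.02 ± 0.12. H2-Oa had the smallest adjusted p, at 0.21 ± 0.19 (limma, adjusted p = 0.554). No member had an unadjusted p under 0.05, and 7.95% of all probe sets had one in the lower direction. Over all genes the call rate in this comparison was 0%, with 2979 of 23410 probe sets at an unadjusted p under 0.05. The median of the 9 differences was -0.07, and that of all tested probe sets was 0.05. The sign of several members turned with single arrays: H2-Ab1 was at 0.90 without FP-high replicate 1 and at -0.73 at the other end of the single-array omissions, and H2-Aa ran from -0.74 to 0.49.

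Adenomas were set against normal epithelium to ask what differs in the tumours, first against the average of both normal group means. Here 7 of the 9 genes had a lower mean in adenomas, and none was called. H2-Aa stood at -1.48 ± 0.65 (SE; limma, adjusted p = 0.443), with a 95% interval from -2.88 to -0.07. Cd74 stood at -1.42 ± 0.54 (adjusted p = 0.366, interval -2.59 to -0.24) and H2-DMa at -1.13 ± 0.29 (adjusted p = 0.123, interval -1.76 to -0.50). H2-Ab1 was at -1.29 ± 0.79, with an interval from -2.99 to 0.41. The first 3 of these are the members with an unadjusted p under 0.05. The call rate over all tested probe sets was 0.91%, or 0.0256% in the lower direction, and 4.59% were lower at an unadjusted p under 0.05. In none of the 9 genes were all adenomas below all 10 normal arrays, which held for 2.04% of probe sets.

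The other members differed less in this comparison. H2-Eb1 was at -0.32 ± 0.41, H2-Oa at -0.23 ± 0.20, Ciita at -0.18 ± 0.12 and H2-Ob at 0.005 ± 0.18, and Ctss was at 0.26 ± 0.61 with an interval from -1.06 to 1.57. The median over the 9 genes was -0.32, beside -0.09 over all tested probe sets, of which 61.9% were lower. The I-A chains, Cd74 and H2-DMa thus had estimates below -1, and the coactivator Ciita and the H2-O chains lay between -0.23 and 0.005. Ciita and the H2-O chains were at low levels, where there is less room to vary, so these estimates cannot be compared directly.

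Set against FP-low arrays alone, which share the adenoma arrays with the comparison above, the same genes had the lowest values. H2-Aa was at -1.55 ± 0.70 (SE; limma, adjusted p = 0.65), H2-Ab1 at -1.31 ± 0.84 (adjusted p = 0.841), Cd74 at -1.49 ± 0.58 (adjusted p = 0.528) and H2-DMa at -1.15 ± 0.31 (adjusted p = 0.191). In 3 of the 9 genes, H2-Aa, H2-Ab1 and Cd74, every adenoma was below every FP-low array. Over all tested probe sets 5.64% were arranged in that way, 0.551% were called in either direction and 0.0171% were called lower. H2-Aa, Cd74 and H2-DMa had an unadjusted p under 0.05, a lower result that 3.2% of probe sets had.

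Against FP-high arrays alone, H2-DMa was at -1.12 ± 0.34 (SE; limma, adjusted p = 0.182), Cd74 at -1.35 ± 0.63 (adjusted p = 0.319), H2-Aa at -1.40 ± 0.75 and H2-Ab1 at -1.27 ± 0.91. In 2 of the 9 genes, H2-DMa and Ciita (-0.19 ± 0.14), all adenomas were below all 4 FP-high arrays, an arrangement found in 10.4% of all tested probe sets. H2-DMa was the 1 member with an unadjusted p under 0.05, which 7.36% of probe sets had in the lower direction. The overall call rate was 0.765% (0.0171% lower), or 179 probe sets, against 51 with the replicate number as a block. No member was called with the block, where H2-DMa had an adjusted p of 0.125.

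**Figure D2:**
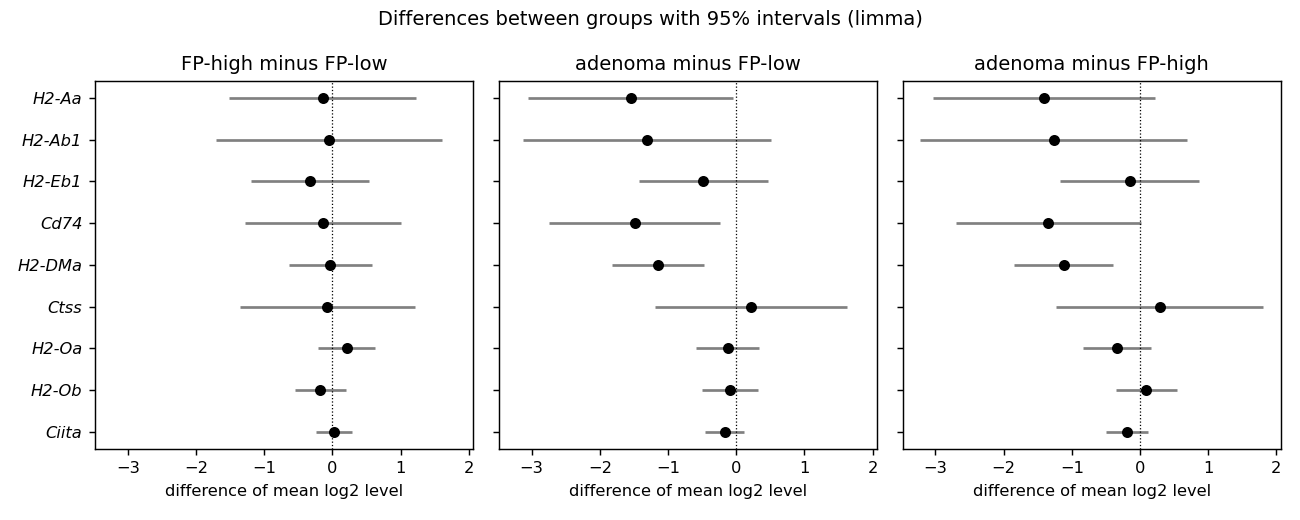
Difference of mean log2 level (horizontal axis) of the 9 genes (vertical axis) in 3 comparisons, as points with 95% intervals from limma; the dotted line is 0. In both adenoma panels H2-Aa, H2-Ab1, Cd74 and H2-DMa lie between -1.12 and -1.55, and in the FP-high minus FP-low panel all 9 intervals include 0.

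The adenoma differences changed with how much weight each array was given and with Xist. When limma estimated a weight for each array (0.0647 for FP-high replicate 1), 3 members were called lower in adenomas against the normal average: H2-DMa at -1.18 (adjusted p = 0.018), Cd74 at -1.73 (adjusted p = 0.0241) and H2-Ab1 at -1.85 (adjusted p = 0.0289). H2-DMa (-1.16, adjusted p = 0.0271) and Cd74 (-1.59, adjusted p = 0.0483) were called against FP-low. With these weights 4.93% and 3.71% of all probe sets were called in the 2 comparisons, 1.97% and 1.52% as lower. Against FP-high no member was called with the weights, beside 2.54% of probe sets in either direction and 0.675% as lower. Leaving FP-high replicate 1 out altogether gave 0 called members in every comparison, while the count over all probe sets against the normal average went from 213 to 488.

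Levels of the I-A chains, Cd74 and H2-DMa were on average also lower in normal arrays with high Xist. In the 2 normal arrays with high Xist, the mean of H2-Aa was 5.32, against 7.02 in the 8 with low Xist and 5.18 in adenomas. For Cd74 these means were 4.78, 6.20 and 4.49, for H2-DMa 4.34, 5.07 and 3.79, and for H2-Ab1 6.84, 7.71 and 6.24. With a term for high Xist in the fit, a step added after the data had been seen, the difference of adenomas from the normal average was -0.13 for H2-Aa, -0.29 for Cd74, -0.55 for H2-DMa, -0.60 for H2-Ab1 and 0.21 for H2-Eb1. No member was called, the smallest adjusted p being 0.978, and 28 probe sets were called in all. Since all 3 adenomas were high in Xist and only 2 normal arrays were, adenoma and Xist level could be separated only through those 2 arrays. The same holds for adenoma and the sex read from Xist and Eif2s3y.

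Within groups, the genes divided into a part that moved together and a part that did not. Each level was taken as a deviation from its group mean, over the 12 arrays without FP-high replicate 1. Pearson's r between H2-Aa and Cd74 was 0.945, between H2-Ab1 and Cd74 0.95, and between H2-Aa and H2-Ab1 0.928. H2-Eb1 followed at 0.706 to 0.765 with these 3, and H2-DMa had an r of 0.766 with Cd74. With all 13 arrays H2-Ab1 and Cd74 had an r of 0.892 and H2-Aa and Cd74 of 0.95. These are descriptions over arrays that share depth of amplification and tissue makeup. Over 12 arrays they rest largely on FP-high replicates 2 and 3 against replicate 4, the FP-high array with high Xist. There the mean of H2-Aa, H2-Ab1, H2-Eb1 and Cd74 stood at 0.88, 1.44 and -1.28 relative to the FP-low mean. FP-low arrays lay between -0.72 and 0.58.

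The other 4 members did not share this pattern. H2-Oa had an r between -0.001 and 0.072 with the 4 genes H2-Aa, H2-Ab1, H2-Eb1 and Cd74, and H2-Ob had one between -0.121 and 0.376. Ciita, the coactivator, had an r between -0.301 and 0.117. Mean levels were 3.56 for H2-Oa, 4.17 for H2-Ob and 4.45 for Ciita. All lie below the median level of every array (4.55 to 4.65), where such an r says little. Ctss had an r of 0.407 with H2-Ab1 on 12 arrays and of 0.809 on 13, the array that makes the difference being FP-high replicate 1, low for both genes.

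**Figure D3:**
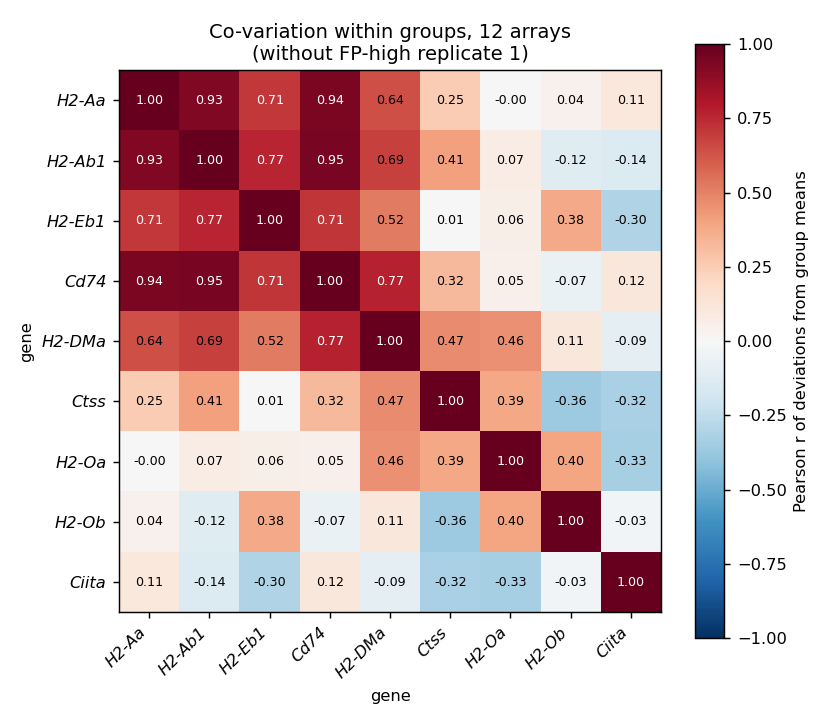
Pearson r between each pair of the 9 genes (both axes), computed on deviations from group means over 12 arrays without FP-high replicate 1; colour runs from -1 to 1. H2-Aa, H2-Ab1, H2-Eb1 and Cd74 form a block with values from 0.706 to 0.95, and H2-DMa joins it at 0.52 to 0.766. Ciita, H2-Oa and H2-Ob do not join it and are at low levels, where an r says little.

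The spread within groups also set the I-A chains and Cd74 apart from most of the array. Over the same 12 arrays the within-group SD was 1.07 for H2-Aa, which is at percentile 99 of all tested probe sets. It was 0.874 for H2-Ab1 (percentile 97.6) and 0.846 for Cd74 (percentile 97.3), against a median of 0.242 over all. H2-Eb1 had 0.621 and H2-DMa 0.474. The SD of H2-Oa was 0.217 and that of Ciita was 0.143, at percentile 12.8. Among probe sets within 0.5 log2 of the same mean level, the percentiles were lower for H2-Aa (97.6), H2-Ab1 (93.7) and Cd74 (95.8). Ciita was at percentile 15.5 by that measure.

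The genes most like H2-Aa, H2-Ab1, H2-Eb1 and Cd74 were sought among 19929 other genes, by r with the per-array mean of these 4 over 12 arrays. The 8 highest were Capzb (0.95), Ap1g1 (0.932), Cyp2d26 (0.931), Egln3 (0.927), Hadh (0.923), Gpd1 (0.921), Treh (0.914) and Slx4ip (0.913). The median over all genes was -0.0853 and the 95th percentile 0.606. FP-high replicates 2 and 3 against replicate 4 weigh heavily in this ranking too. Treh encodes the brush border enzyme trehalase, Hadh an enzyme of mitochondrial fatty acid oxidation and Gpd1 a glycerol phosphate dehydrogenase. On 13 arrays Cyp2d26 had an r of 0.953 and Slx4ip of 0.34. Egln3, an oxygen sensor, was at 6.44 to 7.85 in adenomas and at most 6.14 in normal arrays, so its likeness is one within groups.

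Among whole lists of genes, enterocyte markers, general epithelial markers and MHC class I genes went with the 4 class II genes across arrays. Taken as a mean per array relative to the FP-low mean, H2-Aa, H2-Ab1, H2-Eb1 and Cd74 stood at -1.69, 0.88, 1.44 and -1.28 in FP-high replicates 1 to 4, and at -1.07, -0.997 and -1.56 in the adenomas. FP-low arrays lay between -0.72 and 0.58. The 15 enterocyte markers stood at -1.46, 1.80, 2.46 and 0.28 in FP-high arrays, at -1.20 to 1.12 in FP-low arrays and at -0.03, 0.45 and 0.04 in adenomas. Their r with the 4 genes within groups was 0.815 over 12 arrays and 0.882 over 13, and that of the 11 epithelial markers was 0.725 and 0.805. FP-high replicates 2 and 3 against replicate 4 again weigh heavily in the values over 12 arrays.

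Adenomas departed from that joint course, since their enterocyte mean lay within the FP-low range while the mean of the 4 class II genes lay below it. FP-high replicate 4, the FP-high array with high Xist, was placed likewise, at 0.28 for enterocyte markers and at -1.28 for the class II genes. FP-low replicate 6, the other normal array with high Xist, was not, at -1.20 and -0.72. The part of the enterocyte share of each sample in the class II levels was not tested.

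**Figure D4:**
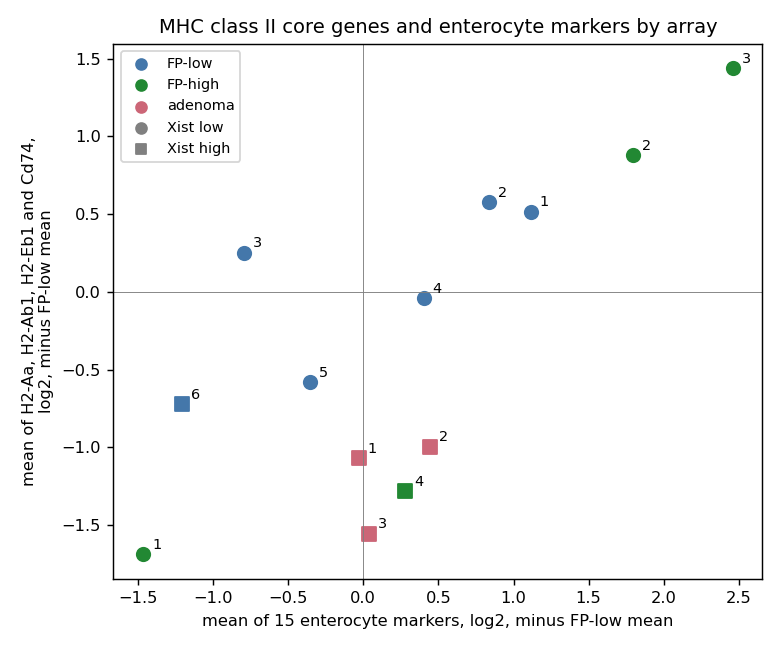
Mean log2 level of H2-Aa, H2-Ab1, H2-Eb1 and Cd74 (vertical axis) against the mean of 15 enterocyte markers (horizontal axis), both relative to the FP-low mean, 1 point per array with its replicate number; squares mark high Xist. Most normal arrays rise together from FP-high replicate 1 (-1.46, -1.69) to FP-high replicate 3 (2.46, 1.44). FP-low replicate 3 (-0.79, 0.25) lies above that course, and the 3 adenomas and FP-high replicate 4 lie below the other arrays of like enterocyte level.

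The enterocyte list itself was higher in FP-high arrays in 15 of 15 genes, with a median difference of 0.77 and none called, where 13179 of all 23410 probe sets were higher. Other lists were higher nearly throughout in this comparison, also with none called: 17 of 18 T cell, 13 of 14 B and plasma cell, 9 of 10 pan-leukocyte and 12 of 15 macrophage markers. In that order, relative to the FP-low mean, their means were 0.17, 0.27, 0.43 and 0.11 on FP-high replicate 1, whose range was compressed. They were 0.73, 0.29, 0.59 and 0.21 on FP-high replicate 3, and between -0.01 and 0.19 on replicates 2 and 4. Lct, the lactase of the brush border, was at 1.32 ± 0.63 (SE; limma, adjusted p = 0.392), and Ada, adenosine deaminase, at 1.51 ± 0.61 (adjusted p = 0.389). The 4 class II genes did not show this in their means, where FP-high replicates 2 and 3 were balanced by 1 and 4.

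Of the remaining genes of the class II pathway, 11 were measured and 1 was called. Over all tested probe sets 0.91% were called in adenomas against the normal average, 0.551% against FP-low and 0.765% against FP-high. Of these, 207, 125 and 175 probe sets were higher in adenomas. Ctsl encodes cathepsin L, the protease that trims the invariant chain in thymic cortical epithelium. It was at 4.80 to 6.56 in FP-low arrays, at 5.37, 5.91, 5.70 and 5.14 in FP-high arrays, and at 8.59, 8.11 and 7.79 in adenomas. Every adenoma was above every normal array, an arrangement whose share over all probe sets was not counted here. The rise was 2.45 ± 0.31 against the normal average (limma, adjusted p = 0.00192), 2.27 ± 0.33 against FP-low (adjusted p = 0.00597) and 2.63 ± 0.36 against FP-high (adjusted p = 0.00392). The calls ended with the Xist term (2.31, 2.12 and 2.50, with adjusted p of 0.0985, 0.193 and 0.0855), and that against FP-low ended with the replicate block (adjusted p = 0.052).

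Lgmn, a further endosomal protease, was at 6.48, 6.71 and 6.49 in adenomas, above all normal arrays (3.94 to 6.19), and differed by 1.45 ± 0.37 (limma, adjusted p = 0.115). The I-E alpha chain H2-Ea was at 2.92 to 3.35 on every array but FP-high replicate 1, where it was at 4.64, and its r with the 4 class II genes over 12 arrays was -0.694. H2-Eb2, a further beta chain, had an r of -0.6. Both genes were at low levels, where such an r says little. Among the proteases of the pathway, Ctsh had an r of -0.721 (-0.108 over 13 arrays) and Ctsd one of 0.601 (0.757 over 13).

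No gene known to control the class II set was called. Of 14 measured partners and regulators of Ciita, none was called in any of the 4 comparisons. The NF-Y subunit Nfyb was at -1.42 ± 0.40 in FP-high against FP-low arrays (limma, adjusted p = 0.263) and at 1.72 ± 0.47 in adenomas against FP-high (adjusted p = 0.143). None of 19 genes of interferon gamma signalling and response was called. The tryptophan-degrading enzyme Ido1 was at 1.10 ± 0.33 in FP-high against FP-low arrays (adjusted p = 0.284) and the inhibitor Socs1 at -0.33 ± 0.14 in adenomas against the normal average (adjusted p = 0.434).

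Of 16 measured MHC class I genes, 12 (75%) were lower in adenomas against the normal average, where 61.9% of all probe sets were, and none was called. Their median was -0.41. Tap1, a subunit of the peptide transporter whose gene lies between H2-DMa and H2-Ob, was at 4.57, 4.62 and 4.56 in adenomas and at 4.89 to 5.53 in normal arrays, a difference of -0.53 ± 0.14 (limma, adjusted p = 0.139). Psmb8, an immunoproteasome subunit, was at -1.22 ± 0.43 (adjusted p = 0.318) and the class I gene H2-Q2 at -0.94 ± 0.42 (adjusted p = 0.452). The class I list had an r of 0.855 with the 4 class II genes over 12 arrays, and H2-Q2 alone 0.863.

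Markers of cells that carry MHC class II constitutively were examined beside these results. Of 10 dendritic cell, 15 macrophage and 14 B or plasma cell markers, none was called in any comparison. The dendritic cell markers were lower in adenomas in 10 of 10 genes, against the normal average (median -0.15) and against FP-high (median -0.20), where 61.9% and 59.6% of all probe sets were lower, and in 6 of 10 against FP-low. Their part in the class II levels was not tested. Among defining dendritic cell markers, Itgax was at 3.50 to 4.26, Flt3 at 3.68 to 4.57 and Zbtb46 at 3.95 to 5.49 over 13 arrays. The macrophage markers Adgre1, Csf1r and Cx3cr1 were at 2.48 to 2.95, 3.26 to 3.65 and 5.12 to 5.91, and the B cell markers Cd79a, Cd79b and Ms4a1 at 2.20 to 3.32, 4.11 to 5.06 and 2.53 to 3.11. These were taken by their place in the lists, and some other members varied more. Jchain, of the B and plasma cell list, was at 2.70 to 6.53 in FP-low arrays, 3.14 to 7.19 in FP-high arrays and 5.64 to 6.65 in adenomas. Tyrobp, of the macrophage list, was at 3.87 to 5.41, 4.58 to 6.66 and 5.66 to 6.17 in the same order. The lists' means per array stayed within -0.19 and 0.56 of the FP-low mean, where the 4 class II genes spanned -1.69 to 1.44. Most of these markers had mean levels below the median level of the arrays (4.55 to 4.65). There a list has less room to vary, so the spans cannot be compared directly. The 0.56 was the dendritic cell list on FP-high replicate 1, whose range was compressed. The next highest array of that list was at 0.21.

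The r of these lists with the 4 class II genes over 12 arrays was -0.376 for dendritic cells, 0.00449 for macrophages and 0.139 for B and plasma cells. T cell and intraepithelial lymphocyte markers had 0.165 and group 3 innate lymphoid cell markers -0.197, with none of 18 and 4 genes called. Most markers of these lists were at low levels, where such an r says little. The T cell list was lower in adenomas against the normal average in 18 of 18 genes, with a median of -0.27. Nkg7, a gene of cytotoxic granules, was at 1.06 ± 0.30 in FP-high against FP-low arrays (limma, adjusted p = 0.263), all 4 FP-high arrays lying above all FP-low ones. The share of all probe sets arranged in that way was not counted here. Il23r, of the innate lymphoid list, was at 0.59 ± 0.28 (limma, adjusted p = 0.392). Its level was 4.34 on FP-high replicate 1, whose range was compressed. It was 2.58 to 2.87 on the other FP-high arrays and 2.25 to 2.71 on FP-low arrays. None of 9 costimulatory and checkpoint ligands was called, the smallest p in adenomas belonging to Tnfsf9 (1.18 ± 0.35; limma, adjusted p = 0.199). Within the macrophage list Mrc1 had 0.70 ± 0.17 in adenomas (adjusted p = 0.0902), Aif1 0.95 ± 0.26 and Lyz2 -1.89 ± 0.54. Lyz2 has a near-identical copy, the Paneth cell gene Lyz1, so its probe set may read both.

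One of 10 pan-leukocyte markers was called. Over all tested probe sets 0.91% were called in adenomas against the normal average and 0.551% against FP-low. Of these, 207 and 125 probe sets were higher in adenomas. Ptprc, which encodes CD45, was at 3.75 to 4.31 in FP-low arrays, at 4.57, 4.38, 4.67 and 4.22 in FP-high arrays and at 5.29, 4.77 and 5.07 in adenomas, so that every adenoma was above every normal array. How many of all probe sets were arranged in that way was not counted here. The difference of Ptprc was 0.79 ± 0.16 against the normal average (limma, adjusted p = 0.0393), 1.00 ± 0.17 against FP-low (adjusted p = 0.0191) and 0.59 ± 0.19 against FP-high (adjusted p = 0.203). The first call ended without FP-high replicate 2 or 4, FP-low replicate 1, 2, 3 or 5, or any adenoma (adjusted p from 0.0617 to 0.301). The second ended without adenoma replicate 1 (adjusted p = 0.143) or 3 (adjusted p = 0.0693). Both ended with the replicate block (adjusted p = 0.204 and 0.186) and with the Xist term (0.451 and 0.326). The pan-leukocyte genes Laptm5 and Coro1a were at -0.26 ± 0.14 and -0.38 ± 0.21 against the normal average (adjusted p = 0.522 and 0.531). The pan-leukocyte list as a whole had a median of -0.08 in adenomas and an r of 0.321 with the 4 class II genes, and its part in their levels was not tested. Most of its markers were at low levels too, where such an r says little.

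**Figure D5:**
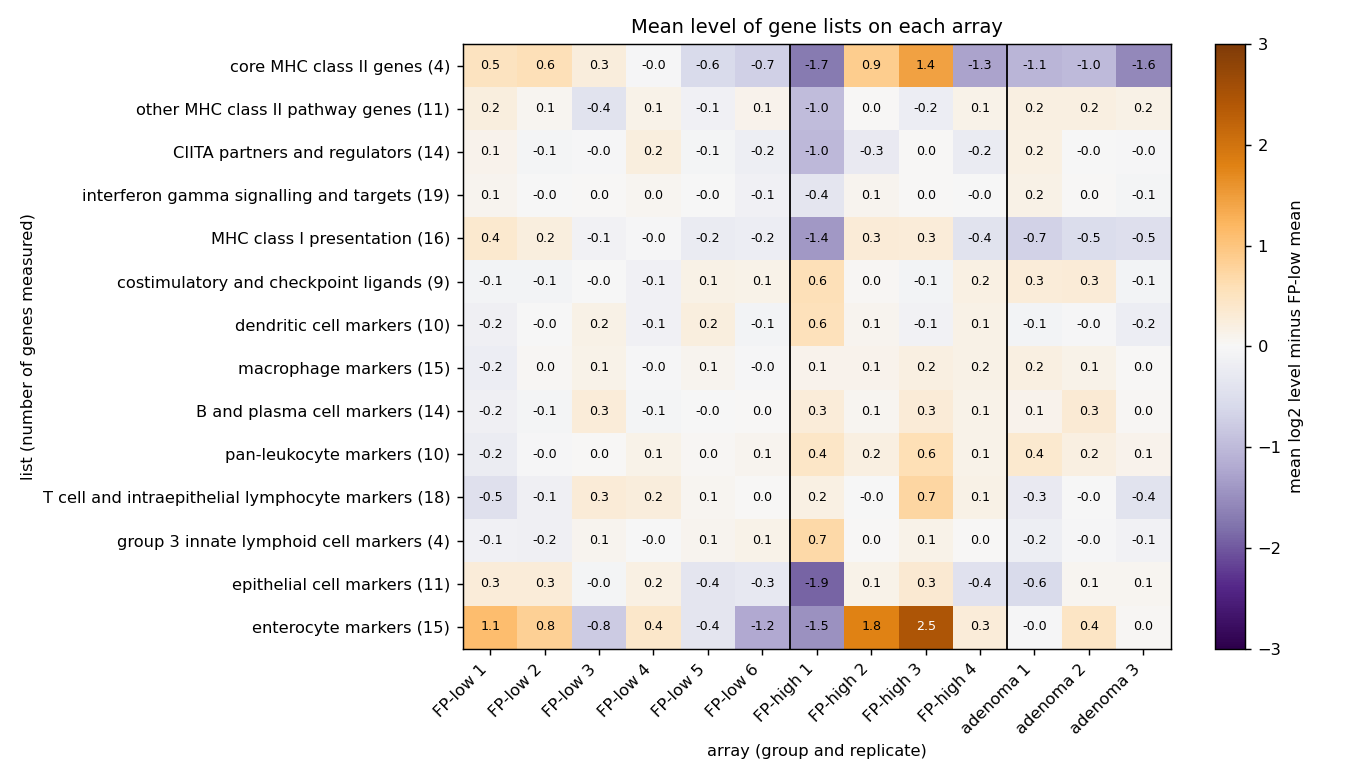
Mean log2 level of each gene list (rows, with the number of genes measured) on each array (columns), relative to the FP-low mean; vertical lines divide the groups. The top row, H2-Aa, H2-Ab1, H2-Eb1 and Cd74, spans -1.69 to 1.44, and among the rows only the enterocyte one is wider (-1.46 to 2.46). The dendritic cell, macrophage and B cell rows stay between -0.19 and 0.56. Most markers of those rows were at low levels, with less room to vary.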

How the data were processed

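The deposited log2 levels of 35556 probe sets on 13 arrays were used as the authors gave them; per the submitters' processing notes they were made with Affymetrix Expression Console and Transcriptome Analysis Console, and the sources used here name no version, background correction or normalization. That the scale is log2 follows from the range of the values. Per the labels' protocols, RNA of picked crypts was amplified before labelling, which can distort levels. In this platform annotation 21789 probe sets had 1 symbol, 1621 had several and 12146 had none. Group means were compared with limma 3.58.1 in R 4.3.3 (lmFit and eBayes, two-sided) on all 13 arrays, with p-values adjusted by Benjamini and Hochberg over 23410 probe sets with a symbol and a call at an adjusted p under 0.05. The procedure was tested on simulated data.

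The members and gene lists were chosen with earlier results of these data known, and the promoter motifs and the Xist alternatives after the values or sequences were seen. All 9 members were named in every comparison; from each other list, genes were taken from those called or with the smallest p, and the first 3 of the dendritic, macrophage, B cell and pan-leukocyte lists. No probe set with 1 symbol was found for 20 list genes. Adenoma and FP-high arrays of the same replicate number deviated together from their group means (r of 0.233, 0.102 and 0.22 over probe sets, all above 0.1), whereas r ran from -0.361 to 0.178 for pairs that include FP-low. No label states a pairing. Promoter sequences are from RefSeq, build GRCm38.p6.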

Additional observations from a re-analysis of the deposited data

Results flagged for a closer look

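Single arrays stood apart from their group for 2 of the 9 genes, by a rule that compares the gap of an extreme sample to its neighbour with the range of the group (critical share 0.625 for 6 arrays and 0.829 for 4). H2-Ob was at 4.94 in FP-low replicate 3, against 4.20 for the next FP-low array, a gap of 0.791 of the range. Ciita was at 4.83 in FP-low replicate 5, against 4.43 for the next, a gap of 0.863 of the range. In all 18 groups of arrays were examined, and chance marks about 1 in 20.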

How the results depend on the processing

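The count of called members was 0 in all 4 comparisons with all arrays, and without each array in turn (lowest 0, highest 0). It was also 0 with the replicate block, quantile normalization, the filter on dim probe sets, all probe sets of the table, the fit on only the groups compared, trend and robust spread, the mean of a gene's probe sets and the Xist term. Array weights gave 3 members against the normal average and 2 against FP-low. With FP-high and FP-low compared, values of changed sign were H2-Aa at 0.00041, Ciita at -0.058 and Ctss at 0.017 after quantile normalization. With array weights they were H2-Aa at 0.42, H2-Ab1 at 0.85, H2-Eb1 at 0.037, H2-DMa at 0.039, H2-Oa at -0.011, Cd74 at 0.28 and Ctss at 0.54. With the Xist term they were H2-Ab1 at 0.027 and H2-DMa at 0.032, and on low-Xist arrays alone H2-Aa at 0.34, H2-Ab1 at 0.052 and Cd74 at 0.11. Among adenoma differences, the Xist term turned H2-Eb1 (0.21 against the normal average, 0.073 against FP-low, 0.35 against FP-high), H2-Oa (0.0032 against FP-low) and H2-Ob (0.020 against FP-low). The replicate block turned H2-Ob to -0.059 against the normal average, and array weights turned Ctss to -0.23 against FP-high. Omitting 1 array at a time, FP-high minus FP-low ran from -0.74 to 0.49 for H2-Aa, -0.73 to 0.90 for H2-Ab1, -0.27 to 0.099 for H2-DMa, -0.69 to 0.30 for Cd74 and -0.48 to 0.75 for Ctss. Ctss in adenomas ran from -0.16 to 0.64 against the normal average, -0.084 to 0.60 against FP-low and -0.53 to 0.70 against FP-high, H2-Eb1 from -0.46 to 0.16 against FP-high, and H2-Ob from -0.027 to 0.074 against the normal average and -0.13 to 0.054 against FP-low. The cause of these turns was not tested. Over all probe sets, calls against the normal average numbered 213, and 488 without FP-high replicate 1, 99 without adenoma replicate 1, 92 without adenoma replicate 2, 67 with the replicate block and 1153 with array weights. Precision is limited by the small number of arrays.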
